A study of Homo sapiens with 6 samples.

Results

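Bidirectional promoters that serve 2 protein-coding genes were examined in peak lists of RNA polymerase II (Pol II) from SK-Hep1 cells. A pair was taken when the genes lay on opposite strands, were transcribed away from each other and had the 5′ ends of their gene records at most 1000 bp apart on chromosomes 1 to 22 or X. The rule gave 883 pairs from 1703 genes, among 19278 coding promoters of 20098 protein-coding genes in all; the other 18395 promoters served a single coding gene. The median spacing of the 5′ ends was 131 bp (quartiles 69 and 247 bp). Because 62 genes, read into 121 pairs, had more than 1 partner, the pairs stood at 821 separate loci, and pairs of a locus share their peak. A further 512 head-to-head pairs whose gene records overlap at the 5′ ends fell outside the rule.

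The cells were siME2+αKG (siRNA against ME2, the mitochondrial malic enzyme 2, with α-ketoglutarate supplied), siME2 (the siRNA alone) and siCtrl (control siRNA). All 3 were SK-Hep1, a human liver-derived adenocarcinoma line often described as endothelial in origin, and each gave 1 Pol II ChIP library and 1 input library. The siME2+αKG library is titled with no number and the siME2 and siCtrl libraries with the number 2, and whether all were made together is not given in the sources used here. With 1 library per condition no difference between conditions has a replicate check; intervals cover counting error of these libraries only, so no p-value is given. How far ME2 was lowered was not measured in these lists, since an siRNA acts on the transcript and not on the promoter.

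Divergent gene pairs put 2 start sites, facing outward, in a shared stretch of open chromatin, and many such stretches are CpG islands without a TATA box. Pol II that has started commonly pauses a short way into each gene, so that ChIP signal is highest just downstream of a start site. Housekeeping genes of DNA repair, replication, RNA processing and mitochondria are often arranged in this way.

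The stretches between the 5′ ends of 11 pairs are printed because the results below turn on these pairs. Among them are the tallest peaks, a histone pair, a closely spaced pair with 2 peaks and a textbook pair. The others are a pair with no listed peak in siME2 and pairs with large height differences between libraries. The stretches come from the hg19 assembly, 5′ to 3′, and exclude both start bases. Capitals mark any of 7 words found on either strand: TATAAA (the TATA box), CCAAT (bound by NF-Y), GGGCGG (bound by SP1 and its relatives), CCGGAAG (an ETS word), the palindromic word bound by NRF1, AAGATGGC (the core of the YY1 word) and TGACGTCA (the cAMP response element, bound by CREB and ATF proteins).
ZBTB4/POLR2A (chr17:7387583-7387684, plus strand): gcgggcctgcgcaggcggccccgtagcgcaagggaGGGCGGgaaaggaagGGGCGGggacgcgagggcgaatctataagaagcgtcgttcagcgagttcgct
RPL12/LRSAM1 (chr9:130213686-130213767, plus strand): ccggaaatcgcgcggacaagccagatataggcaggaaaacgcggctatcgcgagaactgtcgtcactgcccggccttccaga
H2BC21/H2AC20 (chr1:149858233-149858467, plus strand): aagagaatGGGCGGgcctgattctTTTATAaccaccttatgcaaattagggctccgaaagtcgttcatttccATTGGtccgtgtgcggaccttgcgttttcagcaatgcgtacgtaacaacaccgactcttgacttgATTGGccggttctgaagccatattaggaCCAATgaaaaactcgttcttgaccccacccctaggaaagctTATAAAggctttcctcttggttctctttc
IFT20/TNFAIP1 (chr17:26662516-26662627, plus strand): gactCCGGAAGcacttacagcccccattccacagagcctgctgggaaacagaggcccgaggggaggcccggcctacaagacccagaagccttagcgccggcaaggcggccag
TK1/AFMID (chr17:76183315-76183438, plus strand): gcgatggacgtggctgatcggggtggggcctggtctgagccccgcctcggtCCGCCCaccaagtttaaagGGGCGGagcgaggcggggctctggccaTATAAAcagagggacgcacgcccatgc
SLU7/PTTG1 (chr5:159848719-159848861, plus strand): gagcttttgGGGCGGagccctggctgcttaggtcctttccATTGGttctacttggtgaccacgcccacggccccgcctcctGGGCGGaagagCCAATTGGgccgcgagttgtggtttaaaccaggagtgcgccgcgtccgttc
CDCA5/ZFPL1 (chr11:64851637-64851681, plus strand): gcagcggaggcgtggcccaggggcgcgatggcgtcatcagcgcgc
LIG1/ZSWIM9 (chr19:48673861-48673936, plus strand): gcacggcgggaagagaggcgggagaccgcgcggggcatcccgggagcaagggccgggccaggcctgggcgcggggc
U2AF1L4/PSENEN (chr19:36236347-36236500, plus strand): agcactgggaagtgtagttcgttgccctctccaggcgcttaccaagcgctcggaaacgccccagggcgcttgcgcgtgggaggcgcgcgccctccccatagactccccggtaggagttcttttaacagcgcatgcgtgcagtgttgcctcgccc
VPS35/ORC6 (chr16:46723431-46723554, plus strand): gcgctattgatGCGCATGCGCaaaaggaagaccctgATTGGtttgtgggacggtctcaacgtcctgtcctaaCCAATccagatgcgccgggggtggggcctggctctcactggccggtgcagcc
PUS7L/IRAK4 (chr12:44152597-44152746, plus strand): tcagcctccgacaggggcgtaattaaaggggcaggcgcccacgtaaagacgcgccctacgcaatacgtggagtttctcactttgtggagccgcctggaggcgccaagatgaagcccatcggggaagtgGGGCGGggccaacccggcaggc

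The printed stretches differ in what they hold. H2BC21/H2AC20, a divergent pair of replication-dependent histone genes, holds 2 TATA and 3 CCAAT words, at 46.4% GC. SLU7/PTTG1 has 3 CCAAT words, of which 2 overlap on opposite strands, and 2 GGGCGG words, and VPS35/ORC6 has 2 CCAAT words and the NRF1 word. LIG1/ZSWIM9 reaches 81.6% GC with none of the 7 words, and neither RPL12/LRSAM1, CDCA5/ZFPL1 nor U2AF1L4/PSENEN holds any between its 5′ ends. A match is a description of letters and not evidence of binding.

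Across all pairs, 300 bases centred on the midpoint of the 5′ ends had a median GC content of 64.3%, against 59.7% for other coding promoters (from 250 bases before to 50 after the 5′ end). The stretches were CpG-rich, taken as at least 55% GC and an observed over expected CpG of at least 0.6, in 80.7% of pairs (95% exact binomial interval 78.0 to 83.3%) and 47.9% of other promoters (47.1 to 48.6%). TATAAA was present in 5.1% of pairs and 11.4% of other promoters, while GGGCGG was present in 70.9% of pairs and 50.3% of other promoters. CCGGAAG stood in 27.5% of pairs and 10.3% of other promoters. Those other promoters with a long noncoding RNA starting divergently within 1000 bp were close to the pairs in most of this. Their median GC content was 67.0%, and 84.0% were CpG-rich. TATAAA stood in 4.5% of them, GGGCGG in 73.2% and CCGGAAG in 18.9%. High GC and CpG content, frequent GGGCGG and scarce TATAAA were thus not particular to coding pairs. Among CpG-rich promoters alone, CCGGAAG stood in 29.7% of pairs (26.4 to 33.2%) and 16.5% of other promoters (15.7 to 17.3%), and GGGCGG in 77.7% of pairs (74.5 to 80.7%) and 80.8% of other promoters (80.0 to 81.6%). The lead of pairs in the ETS word was thus also present within the CpG-rich class, whereas for GGGCGG it was not. AAGATGGC stood in 6.0% of pairs and 2.72% of other promoters, the NRF1 word in 3.85% and 1.25%, TGACGTCA in 3.96% and 2.12%, and CCAAT in 40.0% and 35.4%, pairs first in each. Windows on a midpoint and windows before a start are placed differently on the genes, which can shift these shares.

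The libraries held 12955596 tags in siME2+αKG, 10445326 in siME2 and 13006504 in siCtrl after duplicate removal, and gave 28949, 29172 and 31690 peaks in that order of libraries. As a check of the cell type, 9 of 12 endothelial and mesenchymal marker genes had a promoter peak in every list, 0 of 12 hepatocyte markers had one in any list, and of 6 leukocyte markers 1 had a low peak in siME2+αKG and in siME2 and 0 in siCtrl. That marker was LCP1, whose record forms a pair with LRRC63, and its summit lay on the LRRC63 side. The 9 endothelial and mesenchymal markers were VIM, FN1, COL4A1, SPARC, LOX, CAV1, CCN1, CCN2 and S100A6. The remaining markers of that set, COL1A2, THY1 and TGFBI, had no promoter peak in any list. None of the 9 is restricted to endothelial cells, so an endothelial origin was not tested.

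Most pairs carried a listed Pol II peak. A peak overlapped the stretch between the 5′ ends or 500 bp beyond in 90.8% of the 883 pairs in siME2+αKG (88.7 to 92.6%), 91.2% in siME2 (89.1 to 93.0%) and 92.1% in siCtrl, where other coding promoters, with 500 bp on either side of the 5′ end, had a peak in 50.2%, 50.8% and 52.3%. In all 3 lists 796 pairs (90.1%) had a peak, against 48.6% of other promoters, and 67 pairs had none in any list. Among CpG-rich promoters the shares were 94.8%, 94.7% and 95.4% for pairs, against 75.7%, 76.7% and 78.1% for others, in siME2+αKG, siME2 and siCtrl. Among CpG-poor promoters they were 74.1%, 76.5% and 78.2% for pairs, against 26.8%, 27.1% and 28.5% for others. Coding promoters with a long noncoding RNA starting divergently within 1000 bp lay between, at 78.9%, 78.8% and 80.5%. The pairs' share was the larger within either CpG class. In windows of equal length, 1001 bp around the midpoint, the pairs' shares were 90.7%, 91.1% and 91.8%; a pair window still holds 2 start sites, and the part of this in the share was not tested.

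Pairs with the ETS word CCGGAAG were occupied in 97.1% of 243 cases in each list (94.2 to 98.8%), and those without it in 88.4% of 640 in siME2+αKG, 88.9% in siME2 and 90.2% in siCtrl. Of pairs with AAGATGGC, 98.1% of 53 had a peak in each list (89.93 to 99.95%), and of those without it 90.4%, 90.7% and 91.7%. With GGGCGG the shares were 93.1%, 93.3% and 94.4%, and without it 85.2%, 86.0% and 86.4%. Pairs with a word were also more often CpG-rich: 87.2% against 78.3% for CCGGAAG, 92.5% against 80.0% for AAGATGGC and 88.5% against 61.9% for GGGCGG. The part of this in the shares with a peak was not tested. The 67 pairs without a peak had a median CpG ratio of 0.666, against 0.888 in the 816 occupied ones, and 31 of them were CpG-rich. Tissue-restricted genes are among them, such as COL4A4/COL4A3 (collagen IV chains of the kidney), GABRA4/GABRB1 (GABA receptor subunits), DUOX2/DUOXA2 (a thyroid oxidase and its maturation factor) and FOXL2/FOXL2NB, names picked after their values were seen.

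Occupied pairs had slightly taller summits. Height is the number of fragments over a summit per 1000000 filtered tags, taken at the highest summit inside the window, and the background is not subtracted. A pair window holds the start sites of both genes, so its highest summit is picked from more start sites than at other promoters. The part of this in the height was not tested. The median was 4.32 in siME2+αKG (4.17 to 4.48), 4.50 in siME2 (4.40 to 4.69) and 4.61 in siCtrl (4.46 to 4.69), against 3.86, 4.12 and 4.23 for other coding promoters. Promoters with a divergent long noncoding RNA had medians of 4.28, 4.6 and 4.77, just below the pairs in siME2+αKG and above them in siME2 and siCtrl. Among CpG-rich promoters the medians were 4.40, 4.6 and 4.69 for pairs and 4.09, 4.31 and 4.38 for others.

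Widths differed less. The widest peak at a pair measured a median of 1144.5 bp in siME2+αKG (1076 to 1217 bp), 1045 bp in siME2 (979 to 1101 bp) and 1292 bp in siCtrl (1246 to 1327 bp), against 1077, 1019.5 and 1199 bp at other coding promoters. In siME2+αKG and siME2 the intervals of pairs and others overlapped. Among CpG-poor promoters the medians were 1014 bp in siME2+αKG, 882 bp in siME2 and 1072 bp in siCtrl for pairs, against 1011.5, 927.5 and 1106 bp for others, so in siME2 and siCtrl the order was reversed there, with overlapping intervals. In siME2, pairs 101 to 200 bp and 201 to 400 bp apart had medians of 954 and 925 bp, also below the other promoters. Promoters with a divergent long noncoding RNA had medians of 1207, 1171 and 1380 bp, above those of the pairs in each list. The position of the edges differed too. Past either 5′ end of a pair the peak reached a median of 588 bp in siME2+αKG, 552.5 bp in siME2 and 613 bp in siCtrl. At other promoters it reached 716, 696.5 and 770.5 bp downstream and 413, 395 and 435 bp upstream. With a divergent long noncoding RNA it reached 694, 682 and 758.5 bp downstream and 599, 571 and 636.5 bp upstream. The longer upstream reach was thus not particular to coding pairs.

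**Figure D1:**
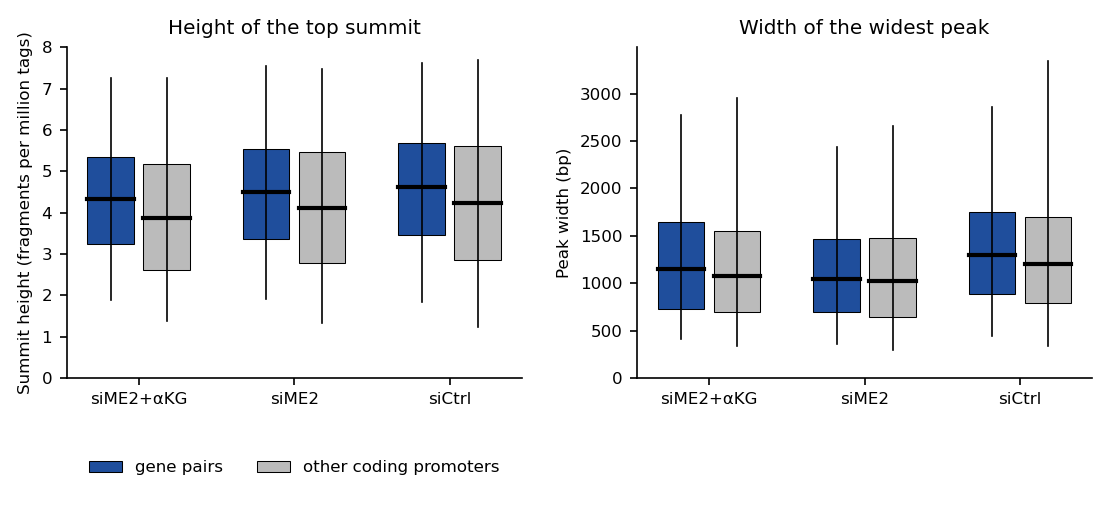
Summit height (left, fragments per 1000000 filtered tags) and width of the widest peak (right, bp) at gene pairs (blue) and other coding promoters (grey) with a peak, in each library. Black bars are medians, boxes quartiles and lines the 5 to 95 percentile range over promoters; the blue and grey boxes overlap over most of their length, with the pair medians higher by 0.38 to 0.46 in height.

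The tallest pairs included genes of transcription, splicing and translation. ZBTB4/POLR2A, which joins a zinc finger repressor to the largest Pol II subunit, had a height of 13.2 in siME2+αKG, 10.8 in siME2 and 11.8 in siCtrl. RPL12/LRSAM1, a ribosomal protein gene and a ubiquitin ligase gene, had 11.9, 11.6 and 11.8 in the same order. SRSF7/GEMIN6, an SR splicing factor with a subunit of the SMN complex, had 11.1, 9.38 and 11.1. For all 3 the intervals of the ratios between libraries include 0, and the summit lay inside POLR2A, RPL12 and SRSF7 each time. The broadest was POLR2L/TSPAN4, of a small subunit shared by the nuclear RNA polymerases, with peaks of 13324 bp in siME2+αKG, 9031 bp in siME2 and 13700 bp in siCtrl. VPS52/RPS18 measured 8547, 8283 and 7727 bp and MED22/RPL7A 9050, 4024 and 10426 bp, both with a ribosomal protein gene as partner. CBX5/HNRNPA1 had 9407 bp in siME2+αKG, 922 bp in siME2 and 11137 bp in siCtrl, and its summit lay beyond the window in all 3 lists.

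The top summit rarely stood between the 2 genes. Only 1.94% of pairs in siME2+αKG (15 of 772), 2.58% in siME2 (20 of 776) and 1.54% in siCtrl (12 of 780) had their top summit between the 5′ ends. At spacings up to 200 bp siCtrl had 0 such cases (with an exact interval reaching 1.19% at 1 to 100 bp), and at 401 to 1000 bp it had 9.89% (9 of 91). Elsewhere the top summit fell about equally on the minus-strand and the plus-strand gene, at 51.0% and 47.0% in siME2+αKG and 49.1% and 49.4% in siCtrl. It lay a median of 178 bp downstream of the nearer 5′ end in siME2+αKG, 168 bp in siME2 and 161 bp in siCtrl, against 159, 151 and 140 bp downstream of the 5′ end at other coding promoters. These measures are unlike, since summits upstream of other promoters count as negative and a pair's summit counts from the nearer 5′ end. The difference of the medians therefore cannot be read as a shift in position. At those others the top summit was upstream of the 5′ end in 20.4% of cases in siME2+αKG and 20.3% in siCtrl. Among those with a divergent long noncoding RNA the share was 28.3% in either list. The gene carrying the top summit was the same in all 3 lists for 606 of 748 pairs.

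**Figure D2:**
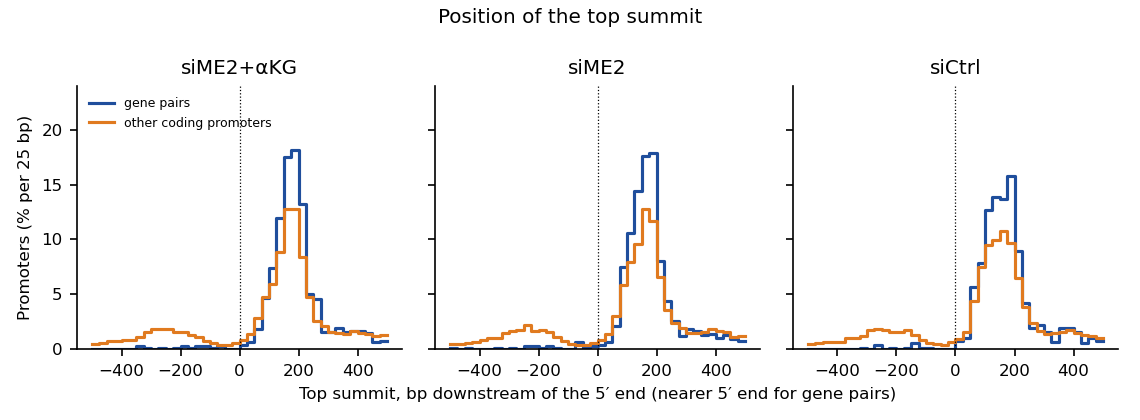
Position of the top summit in bp downstream of the 5′ end (for pairs, of the nearer 5′ end; negative values lie between the genes or upstream), as percent of promoters per 25 bp, for gene pairs (blue) and other coding promoters (orange) in each library. The highest bins of either set lie between 100 and 250 bp downstream; the low hump upstream of other promoters is almost missing from the pairs, where a summit on the partner gene is measured from that gene.

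A part of the pairs was split into separate peaks on the 2 genes. The lists give 1 summit per peak, so 2 or more summits in a window mean separately called peaks. Of pairs with a summit, 21.8% in siME2+αKG (18.9 to 24.8%), 25.9% in siME2 (22.9 to 29.1%) and 15% in siCtrl had 2 or more, against 7.52%, 9.52% and 4.74% of other coding promoters. Equal windows of 1001 bp around each midpoint left 17.5%, 20.7% and 11.5%, still above the other promoters, whose windows have that length. Promoters with a divergent long noncoding RNA had 9.18%, 12.6% and 5.46%.

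Splitting differed with spacing. In siME2+αKG 9.57% of pairs 1 to 100 bp apart were split, 21.5% at 101 to 200 bp, 33.7% at 201 to 400 bp and 41.3% at 401 to 1000 bp. Over the same spacings the shares were 9.67%, 28.6%, 45.1% and 37.9% in siME2, and 3.91%, 8.80%, 30.7% and 38.5% in siCtrl. The libraries thus differed most at 101 to 200 bp and came close at the widest spacing. A pair window is the spacing plus 500 bp on each side, so it is longer at wider spacings. The part of window length in the rise with spacing was not tested. Depth and fragment length also differ: siME2 has the fewest tags and the shortest estimated fragments (201 bp, with 221 bp in siME2+αKG and 211 bp in siCtrl), and their part in the number of separately called peaks was not tested.

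**Figure D3:**
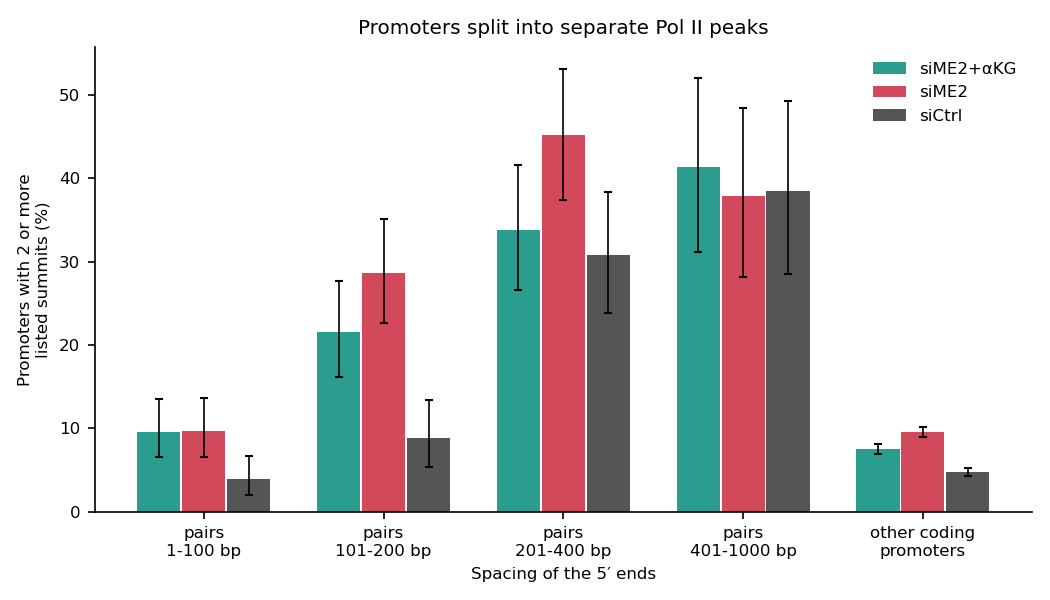
Percent of promoters with 2 or more listed summits among those with any, for gene pairs by spacing of the 5′ ends and for other coding promoters, in each library; error bars are 95% exact binomial intervals. In siCtrl the share is 3.91% at the closest and 38.5% at the widest spacing, and other promoters stay under 10% in every library. Pair windows are longer at wider spacings.

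A summit on each side of the midpoint was found in 167 pairs in siME2+αKG, 200 in siME2 and 117 in siCtrl. With exactly 2 summits, the peaks left a median gap of 238 bp in siME2+αKG, 250.5 bp in siME2 and 234 bp in siCtrl, and the gap held the midpoint of the 5′ ends in 141 of 163, 182 of 198 and 94 of 114 pairs. The 2 sides were unequal by a median of 1.47-fold in siME2+αKG, 1.63-fold in siME2 and 1.52-fold in siCtrl, the higher over the lower by construction. In 81 pairs both sides had a summit in all 3 lists, and the same gene was the higher in all 3 for 64 of them. IFT20/TNFAIP1, an intraflagellar transport gene and a ubiquitin ligase adaptor gene only 113 bp apart, belongs to these, with 84, 96 and 96 unscaled fragments on TNFAIP1 and 39, 40 and 49 on IFT20 in siME2+αKG, siME2 and siCtrl. LPXN/ZFP91, 843 bp apart, had 3 summits in every list.

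The share that split was larger where the window held CCAAT. It was 27.9% in siME2+αKG, 38.5% in siME2 and 21.6% in siCtrl for pairs with the word, and 17.6%, 17.3% and 10.4% for pairs without it. Pairs with CCAAT were also farther apart, at a median of 173 bp in siCtrl against 103 bp. Within 1 to 100 bp the shares were 14.3%, 20.2% and 4.6% with CCAAT and 7.76%, 5.56% and 3.64% without, and in siME2 the intervals did not overlap there (12.3 to 30.4% with, 2.90 to 9.50% without). Within 201 to 400 bp the shares were 34.7%, 52.5% and 38.2% with CCAAT and 32.3%, 33.3% and 18.8% without. Within 101 to 200 bp they were 22.3%, 33.3% and 9.68% with CCAAT and 20.8%, 25% and 8.13% without. Within 401 to 1000 bp they were 55.6%, 55.6% and 45.9% with CCAAT and 32.1%, 27.1% and 33.3% without. CCAAT pairs thus had the higher share in all 4 spacing classes of each library, with overlapping intervals except at 1 to 100 bp in siME2, and the word was singled out after its values were seen.

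Pairs named in textbooks showed these forms one by one. Of 11 looked up, 5 met the rule; the gene records of the other 6, SURF1-SURF2 among them, overlap at the 5′ ends. NPAT/ATM, a histone gene coactivator and the DNA damage kinase, 406 bp apart, was split in every list, with 61, 44 and 61 unscaled fragments on ATM and 33, 30 and 44 on NPAT in siME2+αKG, siME2 and siCtrl. PRKDC/MCM4, the DNA-dependent protein kinase and a subunit of the replicative helicase, 7 bp apart, had a single summit on PRKDC, of height 6.02, 4.98 and 7.30. TK1/AFMID, thymidine kinase and kynurenine formamidase, had its higher summit on AFMID in all 3 lists, at 5.09, 4.98 and 4.38, and a second one on TK1 in siME2+αKG and siME2 alone. SARS2/MRPS12, a mitochondrial tRNA synthetase and a mitochondrial ribosomal protein, had 2.78, 2.97 and 3.61 on MRPS12. PPAT/PAICS, both enzymes of purine synthesis, had 3.86 in siME2+αKG and 3.26 in siME2 on PPAT, and in siCtrl a peak of 2137 bp with its summit outside the window.

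By function, the pairs drew unevenly on the genome. Of all coding genes 8.47% belonged to a pair, but 35.9% of replication-dependent histone genes (23 of 64), 32.2% of DNA damage response and repair genes (29 of 90), 28.1% of replication genes (16 of 57), 23.9% of respiratory chain genes (27 of 113) and 20.8% of mitochondrial ribosomal protein genes (16 of 77). Zinc finger genes stood at 6.5% (36 of 554). The pairs with cytosolic ribosomal protein genes had the highest medians among lists with 12 or more pairs, at 6.25 in siME2+αKG (11 with a summit), 6.08 in siME2 (12) and 6.57 in siCtrl (12). Replication pairs had 3.47, 4.02 and 4.08 over 15, 14 and 15 with a summit, and repair pairs 4.40, 4.69 and 5.00 over 27, 29 and 27.

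Among pairs with mitochondrial and metabolic genes, the siME2 over siCtrl interval of STYXL1/MDH2 excludes 0 (values with the single pairs below), and those of the pairs given here include 0. CCDC127/SDHA, of the flavoprotein subunit of succinate dehydrogenase, had 5.64 in siME2+αKG, 5.65 in siME2 and 5.84 in siCtrl, with the summit on SDHA. TIMM8B/SDHD, of a membrane anchor subunit of the same enzyme, had 4.63, 4.79 and 5.46, on TIMM8B. IDH1/PIKFYVE, of cytosolic isocitrate dehydrogenase, which makes α-ketoglutarate, had 5.02, 4.31 and 5.38, on PIKFYVE. In these 3 pairs siCtrl had the highest value. JMJD6/METTL23, of an α-ketoglutarate-dependent dioxygenase, had 6.48, 6.99 and 7.07, on METTL23. SDHA itself carried the summit, while for SDHD, IDH1 and JMJD6 it stood on the partner in every list. LRRC41/UQCRH, of a complex III subunit, had 7.26, 6.32 and 6.61, on LRRC41, and MRPL10/LRRC46, of a mitochondrial ribosomal protein, had 6.79, 6.51 and 8.07, on MRPL10.

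Between libraries, the medians of pairs lay close to those of all promoters. The comparisons share libraries, so siME2 enters the first 2 below and siCtrl the first and the last. For siME2 over siCtrl the median log2 ratio of summit heights was -0.044 over 759 pairs with a summit in both lists (-0.064 to -0.027), and -0.046 over all 8449 coding promoters. A height 1.5-fold or more lower in siME2 was found in 20 pairs (2.64%), beside 3.39% of all coding promoters, and 1.5-fold or more higher in 4 pairs (0.527%), beside 1.42%. Centred on the median of all promoters, the counts were 15 lower (background 2.58%) and 8 higher (1.96%). All 4 of the pairs' shares were below the background, so larger differences were not more frequent at pairs.

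For siME2+αKG over siME2 the median was -0.052 over 756 pairs and -0.078 over all promoters. Lower by 1.5-fold or more were 16 pairs (2.12%, background 4.48%), and higher 13 (1.72%, background 1.55%), of which several share a locus; with each gene in 1 pair they were 13 and 10. Centred, they were 9 lower (background 3.12%) and 16 higher (2.39%), which turns the balance round; U2AF1L4/PSENEN and 3 overlapping records of its locus make 4 of the pairs higher. Divided by each library's fragment length, a scaling chosen after seeing the data, the lower pairs were 50 (6.61%), beside 9.45% of all coding promoters. For siME2+αKG over siCtrl the median of all promoters was -0.134 on the log2 scale. Relative to that shift the pairs' median was 0.017, with 13 pairs lower (background 2.19%) and 6 higher (1.67%); without it 25 were lower (background 4.66%) and 1 higher (0.777%).

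**Figure D4:**
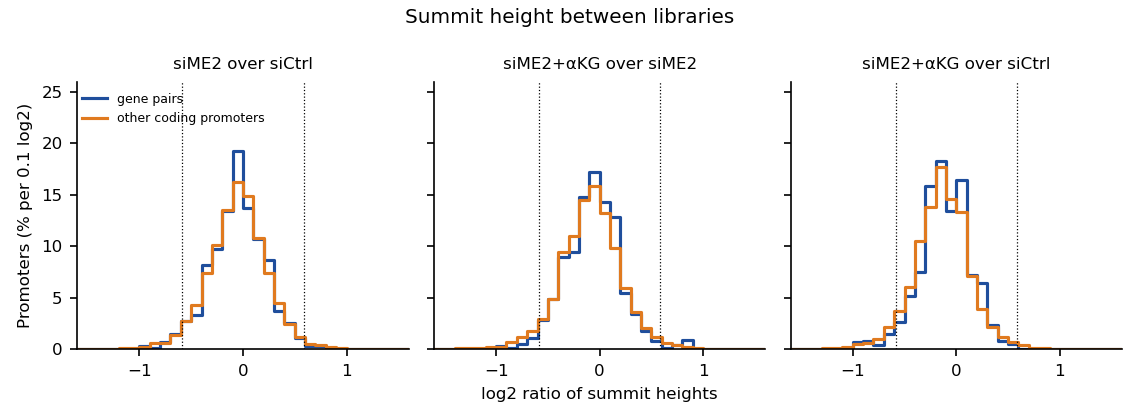
Distribution of log2 ratios of summit heights, as percent of promoters per 0.1 log2, for gene pairs (blue) and other coding promoters (orange) with a summit in both lists; dotted lines mark 1.5-fold. The curves largely overlie each other in the 3 comparisons, with pair medians of -0.044, -0.052 and -0.117.

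The following pairs are among those with the largest ratios. Each has 1 count per library, and its interval is an exact conditional binomial one. SLU7/PTTG1, a splicing factor and securin, the inhibitor of separase, had a height of 2.68 in siME2, against 5.30 in siCtrl (log2 ratio -0.98, interval -1.67 to -0.33), with its summit on PTTG1. In siME2+αKG it had 4.32, and the log2 ratio over siME2 was 0.69 (0.01 to 1.40), with an interval that includes 0 when divided by fragment length (-0.13 to 1.26). CDCA5/ZFPL1, of which CDCA5 encodes sororin, the guard of sister chromatid cohesion, had 2.49 in siME2, against 4.08 in siCtrl (-0.71, -1.45 to -0.01), and 3.4 in siME2+αKG; the interval includes 0 when centred (-1.40 to 0.04) or divided by fragment length (-1.38 to 0.06). Both pairs were lowest in siME2 among the 3 libraries. KCTD9/CDCA2, of which CDCA2 encodes a mitotic phosphatase subunit, had 2.39 in siME2, against 4.15 in siCtrl (-0.80, -1.54 to -0.09), and 3.4 in siME2+αKG. TXNDC16/GPR137C, of a thioredoxin-domain protein and a GPR137 family protein, had 1.44 in siME2, against 2.84 in siCtrl (-0.99, -1.96 to -0.09), and 2.62 in siME2+αKG. MED20/BYSL, a mediator subunit and a ribosome assembly factor, had 4.94 in siME2+αKG, 2.87 in siME2 and 4.61 in siCtrl; its top summit stood on BYSL in siME2 and on MED20 elsewhere, so the ratio compares different genes. The pairs above were named for ratios in which the siME2 count is low. That count is also the denominator of siME2+αKG over siME2, so their higher values in siME2+αKG are no separate result. PALB2/DCTN5 had -0.68 (-1.34 to -0.05) in siME2 over siCtrl and -0.64 (-1.24 to -0.05) in siME2+αKG over siCtrl. Its first interval includes 0 when divided by fragment length, and its second when centred. For siME2 over siCtrl, an interval wholly below 0 was found for 13 pairs (1.71%, beside 1.66% of all promoters). The count was 6 when centred (0.791%, beside 1.1%) and 3 when divided by fragment length (0.395%, beside 0.876%).

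Higher in siME2 than in siCtrl was STYXL1/MDH2. The pair, of which MDH2 encodes the mitochondrial malate dehydrogenase, had 7.56 in siME2, against 5.30 in siCtrl (0.51, 0.03 to 1.00), and 6.10 in siME2+αKG. Its top summit was on MDH2 in siME2+αKG and siME2 and on STYXL1 in siCtrl, so the ratio compares different genes. PCNA/CDS2, the sliding clamp of DNA replication and a phospholipid synthesis enzyme, had 4.12 in siME2, against 2.61 in siCtrl, with an interval that includes 0 (0.66, -0.03 to 1.35) and a summit on CDS2. NOSIP/PRR12 had 4.40 in siME2, against 2.61 in siCtrl (0.75, 0.08 to 1.44). Intervals wholly above 0 came to 3 pairs (0.395%, beside 0.568% of all promoters), or 7 when centred (0.922%, beside 0.864%) and 8 when divided by fragment length (1.05%, beside 0.994%).

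In siME2+αKG over siME2, ATP13A4/OPA1, of which OPA1 encodes a mitochondrial fusion GTPase, had 3.24 in siME2+αKG, against 5.36 in siME2 (-0.73, -1.34 to -0.12), and 5.07 in siCtrl. U2AF1L4/PSENEN, of a splicing factor and a γ-secretase subunit, had 5.40 in siME2+αKG, against 3.06 in siME2 (0.82, 0.20 to 1.47), and 4.15 in siCtrl. Intervals wholly below 0 came to 11 pairs (1.46%, beside 2.62% of all promoters) and wholly above 0 to 7 (0.926%, beside 0.504%), which stand at 3 loci: SLU7/PTTG1, MED20/BYSL and U2AF1L4/PSENEN. Divided by fragment length, 46 lay below (6.08%, beside 6.89%) and 4 above (0.529%, beside 0.168%), the 4 being records of the U2AF1L4 locus; centred, 7 lay below (0.926%, beside 1.42%) and 11 above (1.46%, beside 0.984%).

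In siME2+αKG over siCtrl, VPS35/ORC6, the retromer core and an origin recognition subunit, had 2.47 in siME2+αKG, against 4.84 in siCtrl (-0.97, -1.63 to -0.34), and 3.16 in siME2. Its top summit was on ORC6 in siME2+αKG and siME2 and on VPS35 in siCtrl, so this ratio too compares different genes. PUS7L/IRAK4, of a pseudouridine synthase and the kinase of Toll-like receptor signalling, had 2.24, against 4.23 in siCtrl (-0.92, -1.62 to -0.24), and 3.92 in siME2, each time on IRAK4. Both differences stay negative with the shift of all promoters taken off. Intervals wholly below 0 came to 19 pairs (2.50%, beside 3.42% of all promoters), and 0 pairs lay wholly above 0 (beside 0.131%). Centred, 5 lay below (0.659%, beside 1.04%) and 3 above (0.395%, beside 0.645%), and divided by fragment length 35 lay below (4.61%, beside 6.0%).

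**Figure D5:**
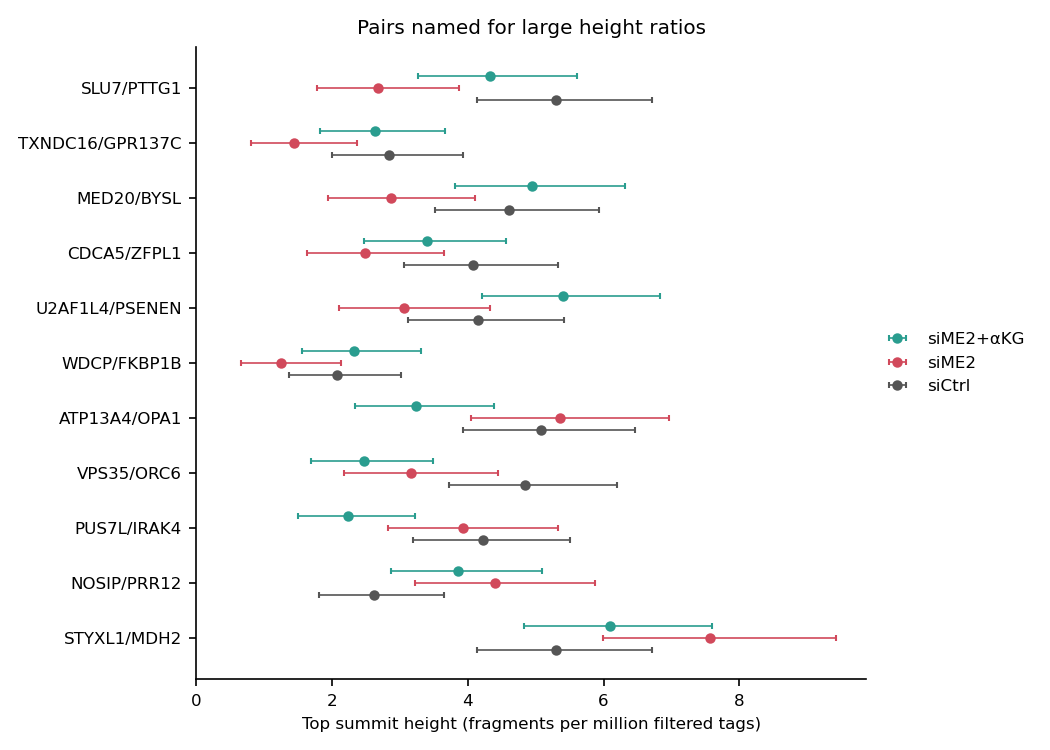
Height of the top summit in fragments per 1000000 filtered tags for 11 pairs named for a large ratio, in siME2+αKG, siME2 and siCtrl; bars are 95% exact Poisson intervals of the single count. SLU7/PTTG1, TXNDC16/GPR137C and MED20/BYSL are lowest in siME2, STYXL1/MDH2 is highest there, and VPS35/ORC6 and PUS7L/IRAK4 are highest in siCtrl.

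A few pairs had a peak in 1 list and none in another. A peak in siME2 and none in siCtrl was found at 3 pairs (0.373%, beside 1.68% of all coding promoters), and the reverse at 11 (1.35%, beside 4.32%). A peak in siME2+αKG and none in siME2 was found at 5 (0.623%, beside 2.25%), and the reverse at 8 (0.994%, beside 3.34%). A peak in siME2+αKG and none in siCtrl was found at 1, LCP1/LRRC63 (0.125%, beside 1.34%), and the reverse at 12 (1.48%, beside 5.05%). These shares were below those of all promoters, whose peaks are also lower. LIG1/ZSWIM9, of which LIG1 encodes the ligase that joins Okazaki fragments, had 33 fragments in siME2+αKG, no listed peak in siME2 and 25 fragments in siCtrl. PGAP4/RNF20, of which RNF20 encodes the ubiquitin ligase for histone H2B, had 27 fragments in siME2+αKG, likewise no listed peak in siME2 and 24 in siCtrl. Pairs listed in siME2+αKG and siCtrl but not in siME2 numbered 5 (0.566%, beside 0.859% of other promoters). Those listed in siME2 and siCtrl but not in siME2+αKG numbered 6 (0.68%, beside 1.27%). HES2/ESPN had 28 fragments in siCtrl alone. A missing entry means that no region passed the peak caller's threshold, not that Pol II was absent; the lowest summit listed in siME2 had 7 fragments.

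Over all pairs 449 of 759, and over all promoters 4870 of 8449, were lower in siME2 than in siCtrl, and the gene lists are given beside that. Of 12 histone pairs, 8 had a summit in every list, and all 8 were lower in siME2 than in siCtrl (median log2 ratio -0.20), but 6 of 8 when centred on all promoters or divided by fragment length. In siME2+αKG over siME2 they were higher in 7 of 8 (median 0.17), 8 of 8 when centred and 5 of 8 when divided by fragment length, beside 302 of 756 pairs and 3108 of 8335 promoters higher overall. The siCtrl list had a peak at 11 of the histone pairs, while the siME2 list and the siME2+αKG list had 8 each. Histone pairs listed for siCtrl alone have no ratio and are left out of these counts. No peak was listed for them with αKG supplied either. H2BC21/H2AC20 had 8.41 in siME2+αKG, 6.70 in siME2 and 8.38 in siCtrl, and H2BC4/H2AC6 had 6.64, 5.07 and 6.92. The intervals of both include 0, at -0.78 to 0.12 and -0.96 to 0.06 for siME2 over siCtrl. In siME2 5 of the pairs were split, and 0 in the other lists. H2BC17 stands in 2 of the pairs, and histone genes have near-identical copies whose reads may be placed on the wrong copy, so these values are uncertain. Repair pairs were lower in siME2 than in siCtrl in 21 of 27 (median -0.13), 19 when centred and 18 when divided by fragment length. The 5 pairs with a gene of the TCA cycle or of malate and α-ketoglutarate metabolism had medians of 5.64 in siME2+αKG, 5.65 in siME2 and 5.46 in siCtrl, and 4 of 5 were lower in siME2 than in siCtrl, or 2 of 5 when divided by fragment length. In siME2+αKG over siME2 the repair pairs were lower in 17 of 27, but in 11 when centred, so no direction is given for them. Of the replication pairs 9 of 14 were lower in siME2 than in siCtrl, or 8 of 14 when divided by fragment length. Lists of other functions were also mostly lower there. Cytosolic ribosomal protein pairs were lower in 11 of 12 (7 when centred), zinc finger pairs in 21 of 30 (19) and α-ketoglutarate-dependent dioxygenase pairs in 6 of 6 (3). Chaperone pairs were lower in 9 of 17 and mitochondrial ribosomal protein pairs in 10 of 17. A majority lower in siME2 was thus not particular to histone or repair pairs. No list had more than 2 pairs past 1.5-fold in either direction in any comparison.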

How the data were processed

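Pol II ChIP-seq was done in siME2+αKG, siME2 and siCtrl cells, with 1 ChIP and 1 input library each (6 samples). Reads were aligned to hg19 with Bowtie2 2.3.5.1 and peaks called with MACS2 2.2.6, per the submitters' processing notes; the file headers name MACS 2.2.7.1. Peaks were called for each library against its input at a p threshold of 1e-05, with 1 tag kept per position, per the file headers. The deposited pileup is a signal, the number of extended fragments at the summit, which the authors' run scaled by 0.8997 in siME2+αKG, so it was divided by that factor (fragments then lay within 0.0055 of whole numbers). The deposited fold enrichment is a ratio to the local input background and was used only to rank pairs; the deposited −log10 q-value was used only as a stricter filter of 5. The depth after filtering was 12955596 tags in siME2+αKG, 10445326 in siME2 and 13006504 in siCtrl, and intervals cover counting error only; tags are not independent molecules.

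Gene records came from GENCODE release 44 lifted to hg19, and sequences from GRCh37, whose main chromosomes share hg19 coordinates (0 peaks ended past a chromosome). A peak counted at 1 bp of overlap. Shares have exact Clopper-Pearson intervals, medians exact order-statistic intervals, and ratios exact conditional binomial intervals (95%). Python 3.11.15 with numpy 2.4.6, scipy 1.17.1 and pandas 2.3.3 was used, and the code was tested on simulated data. Pairs were named by rule: textbook pairs, the 8 tallest and 5 widest per list, the 5 with most summits, the 8 largest ratios per comparison and direction with at least 30 fragments, up to 6 present in 1 list only, and 3 per gene list. The members and the 16 gene lists were chosen with earlier results of these data known; the motif groups, the summit positions and the reach of peaks were added after seeing values. A few pairs that the naming rule picks are not reported here.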

Additional observations from a re-analysis of the deposited data

How the results depend on the processing

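No paired analysis was possible because each condition has 1 ChIP library. The pairs exceeded other coding promoters in share with a peak, height, width and share with 2 or more summits under all 81 alternative values tried (equal windows, stricter peaks, pairs at most 300 bp apart, CpG-rich promoters, each gene once, overlapping 5′ ends, other counting of summits or lengths); CpG-poor promoters alone, given with the widths, were not among them and reversed the order of width in siME2 and siCtrl. Values that moved beyond the interval are given for siME2+αKG, siME2 and siCtrl in that order. CpG-rich promoters alone gave shares with a peak of 94.8, 94.7 and 95.4%, and asking for a summit inside the window gave 87.4, 87.9 and 88.3%. Summed peak lengths had medians of 1281.5, 1175 and 1362 bp. The share with 2 or more summits was 17.5, 20.7 and 11.5% in equal windows and 17.3, 22 and 9.62% for pairs at most 300 bp apart.

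The median log2 ratios changed sign when centred on all coding promoters: 0.003 for siME2 over siCtrl, 0.026 for siME2+αKG over siME2 and 0.017 for siME2+αKG over siCtrl. Divided by fragment length, an alternative chosen after seeing the data, they were 0.027, -0.189 and -0.184. Past 1.5-fold, centring gave 8 pairs higher in siME2 over siCtrl (1.05%, all promoters 1.96%), 9 lower in siME2+αKG over siME2 (1.19%, 3.12%), and 13 lower (1.71%, 2.19%) and 6 higher (0.791%, 1.67%) in siME2+αKG over siCtrl. Division by fragment length gave 9 (1.19%, 2.27%), 50 (6.61%, 9.45%), 39 (5.14%, 7.15%) and 0 (all promoters 0.43%) for the same counts. Asking for a −log10 q of at least 5 left 3 pairs with a peak in siME2+αKG and none in siME2. All 235 recomputed ratios of single named pairs stayed inside the counting interval of the ratio given. This could not have come out otherwise and is no check of single pairs. The scalings add the same constant to every log2 ratio of a comparison, and it is small beside the intervals. The other settings only keep or drop a ratio. Intervals that end near 0, such as that of CDCA5/ZFPL1, include 0 under another scaling. Divided by fragment length, the MED20/BYSL interval for siME2+αKG over siME2 also does. Depth limits single pairs: the top summit held a median of 56 fragments in siME2+αKG, 47 in siME2 and 60 in siCtrl.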
